A study of Mus musculus with 8 samples.

Results

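Genes of the mitotic spindle and the kinetochore were followed through CD8+ T cells that had infiltrated a mouse melanoma. The list holds 46 genes in 8 roles: kinesin motors, spindle microtubule-associated proteins, the spindle checkpoint, mitotic kinases with the chromosomal passenger complex, centromere and kinetochore proteins, anaphase onset, cytokinesis and condensin. A gene was taken as measured where a probe of the array carried its name, or an older name of it, in the deposited table, and its brightest probe was used. This found 40 of the 46 among 17771 gene names. Of these 40, 32 were detected on at least 2 of 8 arrays and were tested among 7879 genes.

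The tumor line, B16.SIY.dsRed, derives from B16 melanoma and was given SIY, a model antigen, and dsRed, a red fluorescent protein. The series' design text describes 10 untreated female C57BL/6 mice, of unstated age, with a tumor in each flank. On day 14 the tumors were pooled, and the CD8+ cells were sorted by 3 receptors, the costimulatory receptor 4-1BB and the inhibitory receptors LAG3 and PD-1. The groups were CD8+4-1BB–LAG3–PD-1– cells (triple-negative), CD8+4-1BB–LAG3–PD-1+ cells (PD-1+), CD8+4-1BB–LAG3+ cells (LAG3+) and CD8+4-1BB+LAG3+ cells (double-positive), and PD-1 is not given in the labels of the last 2. Each of the 4 groups had 2 arrays, from experiments 1 and 2. Each array is a pool of animals, so no value refers to a single mouse.

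In mitosis, microtubules grow from opposite poles into a spindle, motors and crosslinking proteins shape it, and kinetochores built on the centromeres attach the chromosomes to it. The spindle checkpoint holds the cell until every kinetochore is attached. The anaphase-promoting complex, with its activator CDC20, then releases the sister chromatids, condensin keeps them compact, and the midzone directs cytokinesis. Transcripts of many of these genes build up late in the cell cycle, and CD8+ T cells divide after they recognise antigen, so in T cells these transcripts are commonly used as a sign of cycling.

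Many promoters used late in the cell cycle hold a cell cycle homology region (CHR), with the letters TTTGAA or TTCGAA, and CCAAT boxes. RefSeq promoter windows of build GRCm38.p6 were matched by symbol for 39 of the 46 genes, each with 250 bases before and 50 after the start. The windows of the 5 genes that passed the test in a comparison of populations are shown, since these genes carry the expression result. They run 5′ to 3′ on the gene's own strand, and capitals mark a CHR (TTTGAA or else TTCGAA) or a CCAAT box on either strand, so that TTCAAA is a reverse CHR and ATTGG a reverse CCAAT box. Cdc20 lies on the minus strand at chr4:118437294-118437593. The other genes lie on the plus strand, Cenpa at chr5:30666636-30666935, Kif15 at chr9:122950831-122951130, Kntc1 at chr5:123749476-123749775 and Nusap1 at chr2:119618048-119618347.
Cdc20: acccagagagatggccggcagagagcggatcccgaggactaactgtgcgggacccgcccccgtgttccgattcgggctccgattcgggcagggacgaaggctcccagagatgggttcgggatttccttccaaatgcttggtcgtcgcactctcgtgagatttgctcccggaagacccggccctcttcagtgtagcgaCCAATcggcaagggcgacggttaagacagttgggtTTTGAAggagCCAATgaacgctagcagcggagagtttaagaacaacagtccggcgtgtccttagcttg
Cenpa: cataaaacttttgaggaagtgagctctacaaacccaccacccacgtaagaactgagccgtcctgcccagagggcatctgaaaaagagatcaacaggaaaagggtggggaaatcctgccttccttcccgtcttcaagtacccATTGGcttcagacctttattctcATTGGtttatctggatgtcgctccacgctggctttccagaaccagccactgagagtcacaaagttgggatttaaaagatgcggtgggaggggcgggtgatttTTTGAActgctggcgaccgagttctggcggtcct
Kif15: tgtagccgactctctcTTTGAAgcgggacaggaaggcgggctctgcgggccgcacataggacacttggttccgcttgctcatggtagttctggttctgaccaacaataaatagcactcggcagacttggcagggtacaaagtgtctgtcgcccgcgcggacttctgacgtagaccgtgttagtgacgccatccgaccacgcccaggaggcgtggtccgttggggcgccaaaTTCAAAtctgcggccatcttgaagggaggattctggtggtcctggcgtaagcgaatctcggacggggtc
Kntc1: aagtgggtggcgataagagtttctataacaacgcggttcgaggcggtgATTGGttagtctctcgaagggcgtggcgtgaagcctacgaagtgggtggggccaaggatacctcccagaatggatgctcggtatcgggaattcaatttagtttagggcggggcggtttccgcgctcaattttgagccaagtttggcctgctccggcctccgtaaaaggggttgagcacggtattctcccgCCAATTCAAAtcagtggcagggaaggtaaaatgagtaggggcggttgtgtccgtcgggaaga
Nusap1: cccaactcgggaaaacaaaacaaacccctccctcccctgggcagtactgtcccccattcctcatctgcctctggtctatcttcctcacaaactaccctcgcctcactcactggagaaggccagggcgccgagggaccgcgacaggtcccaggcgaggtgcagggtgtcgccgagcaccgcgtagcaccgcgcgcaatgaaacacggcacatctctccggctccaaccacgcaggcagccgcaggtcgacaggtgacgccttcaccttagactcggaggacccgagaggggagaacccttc

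In Cdc20, TTTGAA stood 18 bases before the start, between CCAAT boxes that began 53 and 8 bases before it. In Kntc1, a reverse TTTGAA began 8 bases before the start and overlapped a CCAAT box at 12. Kif15 had TTTGAA at 234 bases and in reverse at 19 bases before the start, and no CCAAT. Cenpa had TTTGAA 16 bases after the start and reverse CCAAT boxes 109 and 86 bases before it, and the Nusap1 window held none of these letters. Of the 39 genes, 29 (74.4%) held TTTGAA or TTCGAA on either strand, against 21.7% of 27025 genes with a window. CCAAT was found in 28 (71.8%, against 41.1%), and both in 25 (64.1%, against 8.61%). In the last 100 bases of a window, TTTGAA or TTCGAA was found in 26 of the 39 (66.7%, against 6.12%). A gene was counted if any of its windows matched, and 4 of the 39 had several. For the 35 with 1 window the shares were 74.3% for TTTGAA or TTCGAA and 62.9% with CCAAT as well, against 19.8% and 7.75% of the 22862 genes with 1 window. A match of letters is a description of the sequence and not a measured binding site.

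Levels are given as log2 of the normalized probe intensity, always for experiment 1 and then experiment 2. Changes are differences of these log2 levels between population means, with the standard error of limma's fit (n = 2 arrays a population). A fold of a dim probe depends on the background correction, and levels of different probes cannot be ranked against each other. Between 5522 and 9044 of 25697 probes were detected per array, and the mean unnormalized intensity ran from 90.9 to 216. The PD-1+ array was the dimmest of each experiment, and the PD-1+ replicates correlated least (r = 0.771 across tested genes, against 0.898 to 0.934 in the other populations). Results are therefore also given without the PD-1+ arrays where this changed a call. The CD8 lineage check was met in part: Cd8b1, which encodes the CD8 beta chain, was between 12.08 and 12.54 on all 8 arrays, and the probe for Cd8a was detected on none.

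Most of the mitotic genes had their lowest level in triple-negative cells and their highest in LAG3+ or double-positive cells. Of the 32 tested genes, triple-negative cells had 22 detected in experiment 1 and 15 in experiment 2, PD-1+ cells 20 and 16, LAG3+ cells 31 and 28, and double-positive cells 32 and 28. Detection on both triple-negative arrays held for 13 of the 32 and for 5214 of the 7879 tested genes. Detection on all 4 LAG3+ and double-positive arrays held for 25 of the 32 and for 4674 of the 7879. All of these genes were chosen by detection on at least 2 arrays. For the 32, the median deviation from each gene's own mean over the 8 arrays was -0.83 on both triple-negative arrays. For PD-1+ cells it was -0.19 and -0.30, for LAG3+ cells 0.78 and 0.25, and for double-positive cells 0.86 and 0.55. The 2 experiments put the populations in the same order, with LAG3+ and double-positive arrays above 0 and the others below it. The triple-negative mean was the lowest of the 4 for 22 of the 32 genes (25% of all tested genes). A LAG3+ or double-positive mean was the highest for 30 (43.3% of genes). Of these 30, 7 were detected in neither triple-negative nor PD-1+ cells (Anln, Cenph, Kif11, Spc25, Tacc3, Tpx2 and Ube2c). They passed the detection filter only through LAG3+ or double-positive arrays, so their place in this count was largely set by the filter. Both LAG3+ and both double-positive arrays lay above both triple-negative arrays for 24 of the 32 (13.2% of genes), and 5 of these 24 were among those 7. The full order of triple-negative, PD-1+, LAG3+ and double-positive means was followed by 12 of the 32 (6.7% of genes): Aurka, Birc5, Cenpa, Cenph, Cenpk, Incenp, Kif11, Kntc1, Mad2l1, Ncapd2, Ncaph and Nusap1. Kif11 and Cenph, which are among these 12 and among the 22, were detected in neither triple-negative nor PD-1+ cells, so the order of those populations is one of background values for them. In bulk samples, fewer cells that carry a transcript and less transcript per cell cannot be told apart.

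**Figure D1:**
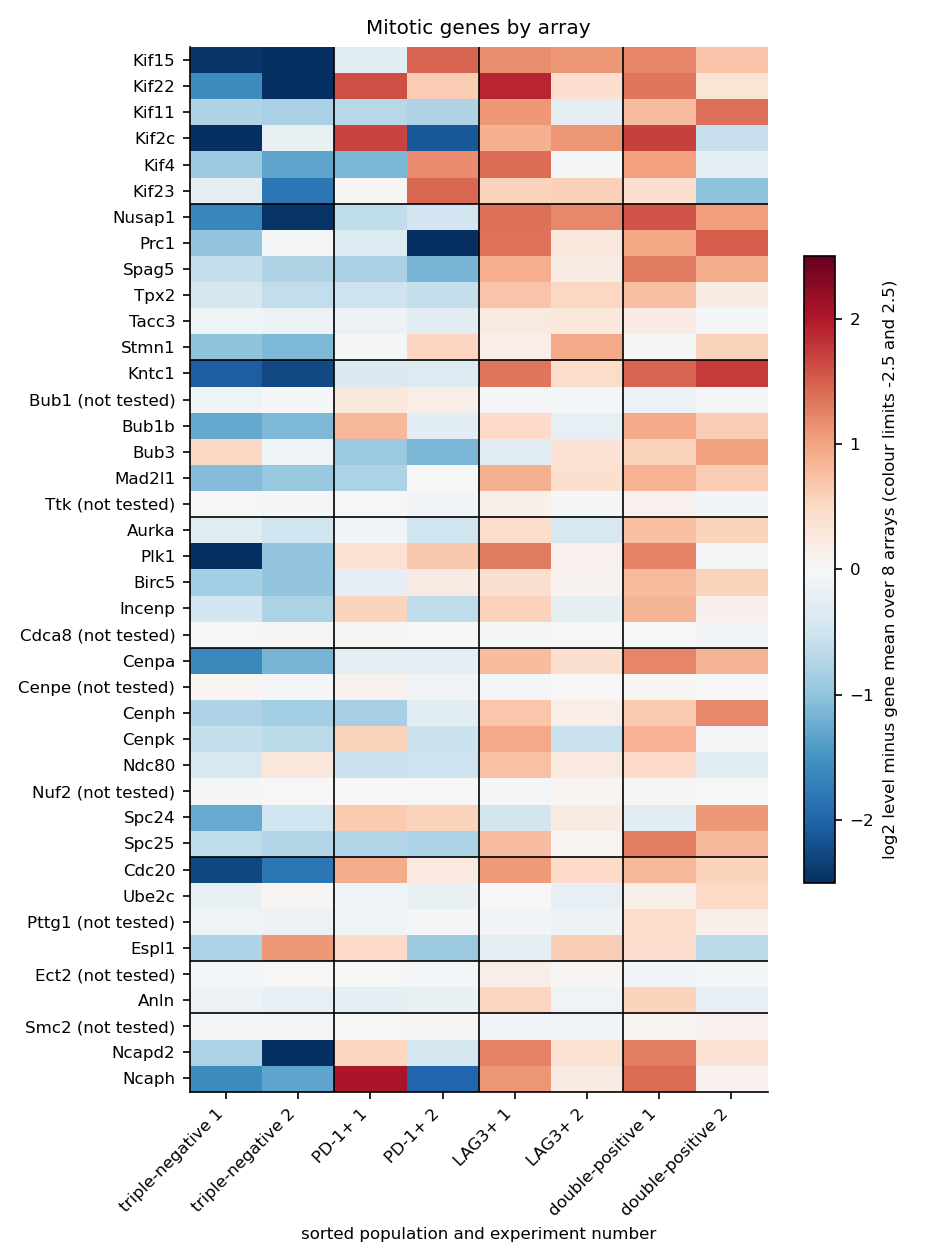
Deviation of each listed gene with a probe from its own mean over the 8 arrays (colour, log2), by array (columns, population and experiment number) and gene (rows, ordered by role, with lines between roles). The triple-negative columns are mostly blue and the LAG3+ and double-positive columns mostly red, while the PD-1+ columns differ from gene to gene, and the 8 genes that were not tested show little colour.

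Double-positive cells had higher levels of 5 mitotic genes than triple-negative cells. These were Kntc1, a checkpoint protein of the outer kinetochore, Kif15, a motor that helps to keep the spindle bipolar, Nusap1, which bundles spindle microtubules, Cdc20, the activator of the anaphase-promoting complex, and Cenpa, the histone H3 variant of centromeres. Their means differed by 5.36- to 13.5-fold, and by 3.38- to 4.91-fold without background correction. Of the 32 tested, 5 rose and 0 fell, against 0.406% and 0.533% of all 7879 tested genes (limma, Benjamini-Hochberg adjusted p under 0.05). The change was above 0 for 31 of the 32, against 49.6% of all genes. The groups did not overlap for 27 of the 32, all higher in double-positive cells, against 22.6% of genes that were higher and 21.7% that were lower. At an unadjusted p under 0.05, 19 were higher and 0 lower, against 6.79% of genes each way. The median change was 1.73 (1.77 within experiment 1 and 1.54 within experiment 2), against -0.01 over all tested genes.

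These 32 genes had passed a detection filter, and some passed it only through the populations in which they were high, so the counts alone do not support a difference. Of the 32, 13 were detected on both triple-negative arrays, 11 on 1 and 8 on neither. For the 13, the median change between double-positive and triple-negative cells was 1.97 and all 13 changes were above 0, against a median of -0.14 over the 5214 genes detected on both triple-negative arrays. With experiment as a block, 5 genes again passed, with Ncapd2 (adjusted p = 0.0425, limma) in place of Kif15 (0.063, limma). Kif15 also missed the threshold with an offset of 50 (2.44, adjusted p = 0.0811, limma), without background correction (1.77, 0.108) and without a detection filter (0.145). Without a filter Nusap1 (0.0508) and Cdc20 (0.0729) missed it too, as did Cdc20 with the mean of its detected probes (0.0511). With only the arrays of the 2 populations, Nusap1, Cdc20 (both 0.0516) and Cenpa (0.0599, limma adjusted p) missed it. The count rests on each array: it was 0 without any 1 of the triple-negative or double-positive arrays, 1 (Kntc1) without either LAG3+ array and 8 without either PD-1+ array. Without both PD-1+ arrays, the 8 were the 5 genes above with Bub1b, Mad2l1 (both 0.0447) and Birc5 (0.0483, limma adjusted p). The call of Birc5 holds for the probe used, and its other detected probes differed by less, as given below.

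Among the motors, Kif15 was at 4.66 and 4.16 in triple-negative, 6.82 and 8.54 in PD-1+, 8.26 and 8.19 in LAG3+, and 8.31 and 7.81 in double-positive cells. The triple-negative arrays were the lowest, and those of the other populations overlapped. Kif15 rose by 3.65 ± 0.57 (SE) in double-positive against triple-negative cells (limma adjusted p = 0.0451, detected on 1 of 2 triple-negative arrays), a call that the background handling ends, as given above. Kif22, a motor that moves chromosome arms, was at 7.25 and 4.15 in triple-negative, 10.42 and 9.46 in PD-1+, 10.73 and 9.24 in LAG3+, and 10.16 and 9.16 in double-positive cells. Its triple-negative arrays lay below all others but were far apart, and its change of 3.96 ± 1.03 had a limma adjusted p of 0.149. Kif23, the motor of the central spindle, was lowest on triple-negative array 2 and highest on PD-1+ array 2. Its levels were 5.80 and 4.22 in triple-negative, 6.05 and 7.46 in PD-1+, 6.59 and 6.63 in LAG3+, and 6.42 and 5.03 in double-positive cells. Double-positive and triple-negative arrays overlapped, with a difference of 0.71 ± 0.73 (limma adjusted p = 0.839), while LAG3+ and PD-1+ arrays lay above both triple-negative ones.

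Kif11, the motor that pushes the spindle poles apart, was detected on 4 arrays, both LAG3+ and both double-positive ones. Its levels were 4.20 and 4.15 in triple-negative, 4.25 and 4.21 in PD-1+, 6.03 and 4.73 in LAG3+, and 5.74 and 6.33 in double-positive cells. With no detected signal in triple-negative cells, only a bound can be given there: double-positive cells exceeded them by at least 2.95-fold (adjusted p = 0.143, limma). Such bounds set the double-positive mean against the lowest detected signal of the triple-negative arrays, or the probe's own signal where higher. They leave out the sampling error of the means and hold only for the background correction used. Kif4, a motor of chromosome arms and the midzone, and Kif2c, which removes tubulin from microtubule ends, changed by 1.50 ± 0.86 and 1.90 ± 1.37 in double-positive against triple-negative cells, neither past the threshold. For Kif2c the experiments opposed each other, at 4.20 within experiment 1 and -0.40 within experiment 2. The other detected probe of Kif4 differed by less than the one used, as given below.

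Among the microtubule-associated proteins, Nusap1 was at 5.64 and 4.83 in triple-negative, 6.64 and 6.79 in PD-1+, 8.65 and 8.48 in LAG3+, and 8.85 and 8.33 in double-positive cells. The populations formed 3 separate levels, with LAG3+ and double-positive arrays together at the top. Nusap1 rose by 3.36 ± 0.39 in double-positive against triple-negative cells (limma adjusted p = 0.0164). Spag5, which anchors microtubules at poles and kinetochores, Tpx2, which activates Aurora A on the spindle, and Prc1, which crosslinks midzone microtubules, did not overlap between these groups but missed the threshold. The differences were 1.79 ± 0.37 for Spag5 (limma adjusted p = 0.0864) and 1.74 ± 0.81 for Prc1 (0.422). Tpx2 was not detected in triple-negative cells, and double-positive cells exceeded them by at least 1.69-fold (adjusted p = 0.248, limma). Stmn1, which destabilises microtubules, differed by 1.34 ± 0.42 (limma adjusted p = 0.221).

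Tacc3, which stabilises the microtubules that hold the chromosomes, had the smallest difference of its role and was detected on 3 arrays. It was at 4.32 and 4.29 in triple-negative, 4.28 and 4.16 in PD-1+, 4.65 and 4.68 in LAG3+, and 4.63 and 4.39 in double-positive cells. All of these lay close together. Tacc3 was detected on 1 double-positive array and on no triple-negative array, so no bound is given (limma adjusted p = 0.918).

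**Figure D2:**
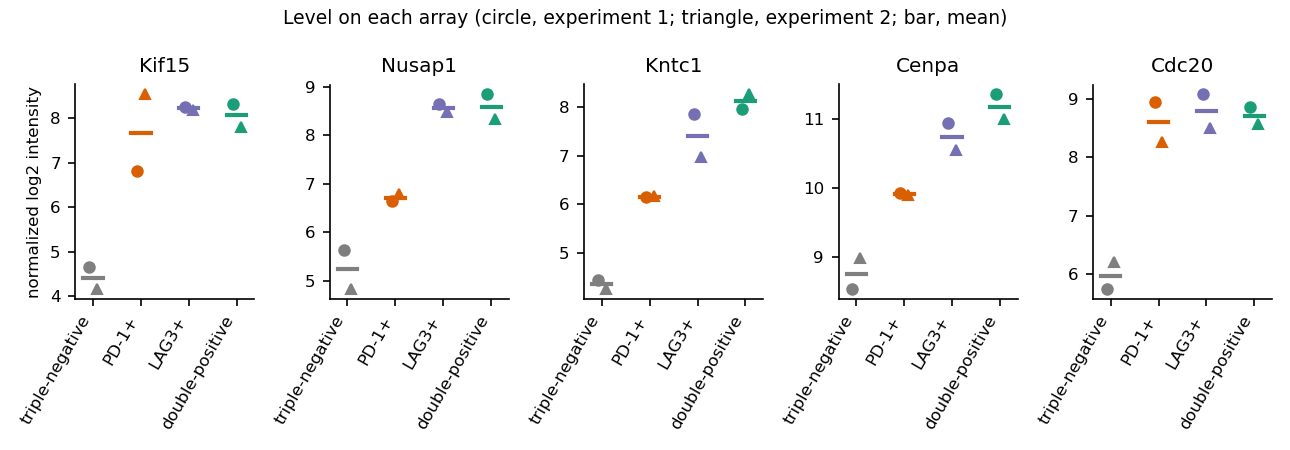
Log2 level (y axis) of the 5 genes that passed the test, by sorted population (x axis). Circles are experiment 1, triangles experiment 2 and bars the mean of the 2 arrays, and each panel has its own y range, which does not start at 0. Triple-negative arrays are the lowest for each of the 5 genes, and PD-1+ arrays lie in between for Nusap1, Kntc1 and Cenpa but near the LAG3+ and double-positive arrays for Cdc20, while for Kif15 the PD-1+ array of experiment 1 lies in between and that of experiment 2 near them.

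In the checkpoint, Kntc1 was at 4.46 and 4.26 in triple-negative, 6.15 and 6.17 in PD-1+, 7.85 and 6.97 in LAG3+, and 7.97 and 8.26 in double-positive cells. No population overlapped another, and the order was triple-negative, PD-1+, LAG3+ and double-positive. The change of 3.76 ± 0.38 in double-positive against triple-negative cells had the smallest adjusted p of the 32 genes (0.0130, limma, detected on 1 of 2 triple-negative arrays). Bub1b, an inhibitor of the anaphase-promoting complex, and its partner Mad2l1 were detected on all 8 arrays and were higher in double-positive cells in both experiments. Their changes were 1.97 ± 0.45 for Bub1b (limma adjusted p = 0.110) and 1.77 ± 0.38 for Mad2l1 (0.0970). Bub3, which brings checkpoint kinases to the kinetochore, was at 5.84 and 5.21 in triple-negative, 4.39 and 4.18 in PD-1+, 5.06 and 5.68 in LAG3+, and 5.90 and 6.33 in double-positive cells. It was lowest in PD-1+ cells, where it was detected on neither array, and its double-positive and triple-negative levels were 0.59 ± 0.39 apart (limma adjusted p = 0.642). The checkpoint kinases Bub1 and Ttk were detected on no array.

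Among the mitotic kinases, Plk1, which drives entry into and progress through mitosis, was at 4.77 and 6.41 in triple-negative, 7.76 and 8.07 in PD-1+, 8.70 and 7.51 in LAG3+, and 8.64 and 7.35 in double-positive cells. Triple-negative arrays were the lowest and differed widely from each other. The difference of 2.40 ± 0.70 between double-positive and triple-negative cells did not pass (limma adjusted p = 0.195). Aurka, the kinase of the spindle poles, was at 4.46 and 4.27 in triple-negative, 4.69 and 4.26 in PD-1+, 5.22 and 4.35 in LAG3+, and 5.51 and 5.32 in double-positive cells. Its double-positive arrays were the highest, by 1.05 ± 0.39 over triple-negative cells (limma adjusted p = 0.300). Birc5 (survivin) and Incenp, of the chromosomal passenger complex that corrects faulty attachments, differed by 1.60 ± 0.32 (limma adjusted p = 0.0857) and 1.13 ± 0.52 (0.414). Both were higher on both double-positive arrays than on either triple-negative array. The other detected probes of Birc5 differed by less than the one used, as given below. Cdca8, another subunit of that complex, was detected on no array.

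At the centromere, Cenpa was detected on all 8 arrays. It was at 8.53 and 8.98 in triple-negative, 9.92 and 9.89 in PD-1+, 10.93 and 10.54 in LAG3+, and 11.36 and 10.99 in double-positive cells. No population overlapped another, in the same order as for Kntc1. Cenpa rose by 2.42 ± 0.34 in double-positive against triple-negative cells (limma adjusted p = 0.0315). Cenph and Cenpk, of the inner kinetochore, and Spc25, of the NDC80 complex that grips microtubules, were not detected in triple-negative cells. Double-positive cells were at least 2.80-fold higher for Cenph (limma adjusted p = 0.0976), 1.70-fold for Cenpk (0.582) and 2.86-fold for Spc25 (0.0906). The bound for Spc25 holds for the probe used, and its other detected probe differed by less than this bound, as given below. Spc24, the partner of Spc25 in that complex, was detected on all 8 arrays and differed by 1.28 ± 0.54 (limma adjusted p = 0.361). Ndc80 itself was at 4.36 and 5.0 in triple-negative, 4.22 and 4.24 in PD-1+, 5.48 and 4.99 in LAG3+, and 5.23 and 4.47 in double-positive cells. The groups overlapped, and the difference of 0.17 ± 0.41 between double-positive and triple-negative cells turned to -0.15 and -0.21 without triple-negative array 1 and double-positive array 1. Cenpe, a motor of the kinetochore, and Nuf2, a subunit of the same complex, were detected on no array.

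At anaphase onset, Cdc20 was at 5.74 and 6.21 in triple-negative, 8.94 and 8.25 in PD-1+, 9.08 and 8.50 in LAG3+, and 8.85 and 8.57 in double-positive cells. Triple-negative arrays were alone at the bottom and the other 3 populations overlapped. Cdc20 rose by 2.73 ± 0.40 in double-positive against triple-negative cells (limma adjusted p = 0.0343). Its other 2 probes that were detected gave 2.38 and 2.55. Espl1, the separase that cuts cohesin, had no order: it was at 4.24 and 6.12 in triple-negative, 5.50 and 4.11 in PD-1+, 4.77 and 5.65 in LAG3+, and 5.46 and 4.37 in double-positive cells. Its difference of -0.27 ± 0.78 changed sign when an array was left out, to 0.67 without triple-negative array 2. Ube2c, a ubiquitin-conjugating enzyme of the anaphase-promoting complex, was detected on the 2 double-positive arrays alone, where it was at least 1.12-fold above triple-negative cells (limma adjusted p = 0.723). Pttg1 (securin), which restrains separase, was detected on 1 array, a double-positive one, and was not tested.

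In cytokinesis, Anln (anillin), a scaffold of the contractile ring, was the only tested gene of its role, and Ect2, which activates RhoA there, was detected on no array. Anln was at 4.21 and 4.15 in triple-negative, 4.10 and 4.16 in PD-1+, 4.87 and 4.24 in LAG3+, and 4.89 and 4.13 in double-positive cells. It was detected on 2 arrays, and only the LAG3+ and double-positive arrays of experiment 1 stood apart. In condensin, Ncapd2 was at 6.61 and 4.83 in triple-negative, 7.94 and 6.97 in PD-1+, 8.66 and 7.78 in LAG3+, and 8.68 and 7.77 in double-positive cells. In each experiment it was lowest in triple-negative cells and highest in LAG3+ and double-positive cells, which were nearly equal. The change of 2.51 ± 0.70 in double-positive against triple-negative cells had a limma adjusted p of 0.173, and of 0.0425 with experiment as a block. Its other 2 detected probes changed by 0.89 and 1.37. Ncaph, the subunit that closes the condensin ring, was at 5.53 and 5.79 in triple-negative, 9.14 and 5.12 in PD-1+, 8.20 and 7.30 in LAG3+, and 8.50 and 7.21 in double-positive cells. The PD-1+ arrays were its highest and its lowest, and the difference of 2.19 ± 1.19 between double-positive and triple-negative cells had a limma adjusted p of 0.522. Smc2, a core subunit, was detected on no array.

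For 5 of the tested genes, 8 further probes were detected on at least 2 arrays. In double-positive against triple-negative cells all 8 differed in the same direction as the probe used, and 5 of them by under 0.5 times as much. In PD-1+ against triple-negative cells 6 of the 8 had the same direction. In the first of these comparisons Birc5 gave 0.44 and 0.33, Kif4 0.14 and Spc25 0.38. The 8 genes with a probe but without a test (Bub1, Ttk, Cdca8, Cenpe, Nuf2, Ect2, Smc2 and Pttg1) had levels from 4.09 to 4.71 on every array, which is not a measured absence.

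In LAG3+ cells, which lack 4-1BB, 1 of the 32 mitotic genes rose against triple-negative cells and 0 fell. It was Nusap1, at 3.33 ± 0.39 (limma adjusted p = 0.0389, and 0.0513 with experiment as a block, where 0 of the 32 passed). Nusap1 also missed the threshold without a detection filter (0.0956) and with only the arrays of the 2 populations (0.0981, limma adjusted p). In this comparison 0.0762% of all genes rose and as many fell. At an unadjusted limma p under 0.05, 17 of the 32 were higher and 0 lower (4.7% and 4.61% of genes). Kntc1 (3.05 ± 0.38, limma adjusted p = 0.0511), Kif15 (3.81 ± 0.57, 0.069) and Cdc20 (2.81 ± 0.40, 0.069) came next. The groups did not overlap for 27 of the 32, all higher in LAG3+ cells (19.2% of genes were higher and 19.6% lower), and 30 of the 32 differences were above 0 (49% of genes). The median was 1.28 (1.53 within experiment 1 and 1.04 within experiment 2), against -0.01 over all genes. These counts, too, hold genes that passed the detection filter only where they were high. Of the 13 genes detected on both triple-negative arrays, 12 were above 0, and 11 did not overlap and were higher. Their median was 1.67. Over all 5214 genes so detected it was -0.13, and 16.7% did not overlap and were higher. Kif22 differed by 4.29 ± 1.03 (limma adjusted p = 0.207), Plk1 by 2.51 ± 0.70 (0.293) and Ncapd2 by 2.50 ± 0.70 (0.292). The exceptions were Bub3 at -0.15 ± 0.39 and Ube2c, which was detected in neither population. The count of 1 went to 0 without any 1 of the triple-negative, LAG3+ or double-positive arrays and to 4 (Kif15, Nusap1, Kntc1 and Cdc20) without either or both PD-1+ arrays.

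In PD-1+ cells the pattern differed from gene to gene. No mitotic gene passed against triple-negative cells, while 13 of the 32 were higher and 1 lower at an unadjusted limma p under 0.05 (6.02% and 8.73% of genes), and 0.228% of all genes rose and 0.305% fell after adjustment. The difference was above 0 for 22 of the 32 (47.3% of genes). Cdc20 had the smallest value, at 2.62 ± 0.40 with a limma adjusted p of 0.05002. The groups did not overlap for 16 of the 32 that were higher (17.6% of genes) and 4 that were lower (22.3% of genes), and the median was 0.78 (0.80 within experiment 1 and 0.38 within experiment 2), against -0.04 over all genes. These counts hold 7 genes that were detected in neither population (Kif11, Tpx2, Tacc3, Cenph, Spc25, Ube2c and Anln). Over the other 25, 20 were above 0, 15 did not overlap and were higher, 3 did not overlap and were lower, and the median was 1.15. Over the 32, the median was 0.32 without PD-1+ array 1, and 2 genes passed without either PD-1+ array.

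In PD-1+ cells the levels of Kif22, Cdc20 and Plk1 overlapped with those in LAG3+ cells, as did Kif15. Their differences from triple-negative cells were 3.27 ± 0.57 for Kif15 (limma adjusted p = 0.0660), 4.24 ± 1.03 for Kif22 (0.131) and 2.32 ± 0.70 for Plk1 (0.201). Bub1b and Stmn1 also overlapped with LAG3+ cells, at 1.48 ± 0.45 and 1.32 ± 0.42 above triple-negative cells, and Spc24 (1.48 ± 0.54) was higher on both PD-1+ arrays than on either LAG3+ array. For the 7 genes detected in neither population no difference can be given. Spag5 was detected on both triple-negative arrays, at 4.88 and 4.74, and on no PD-1+ array, with background values of 4.68 and 4.33. Bub3 was lower in PD-1+ than in triple-negative cells, by at least 1.58-fold (limma adjusted p = 0.211), and Prc1 was at -1.04 ± 0.81, with overlap. The genes of this paragraph were picked after their values were seen, and were not tested against each other. On the dim PD-1+ array of experiment 2, the unnormalized signal of Kif15 was 146. In the same experiment it was 81.6 in triple-negative and 237 in LAG3+ cells. After normalization, however, the level of Kif15 on this PD-1+ array exceeded that of LAG3+ cells.

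**Figure D3:**
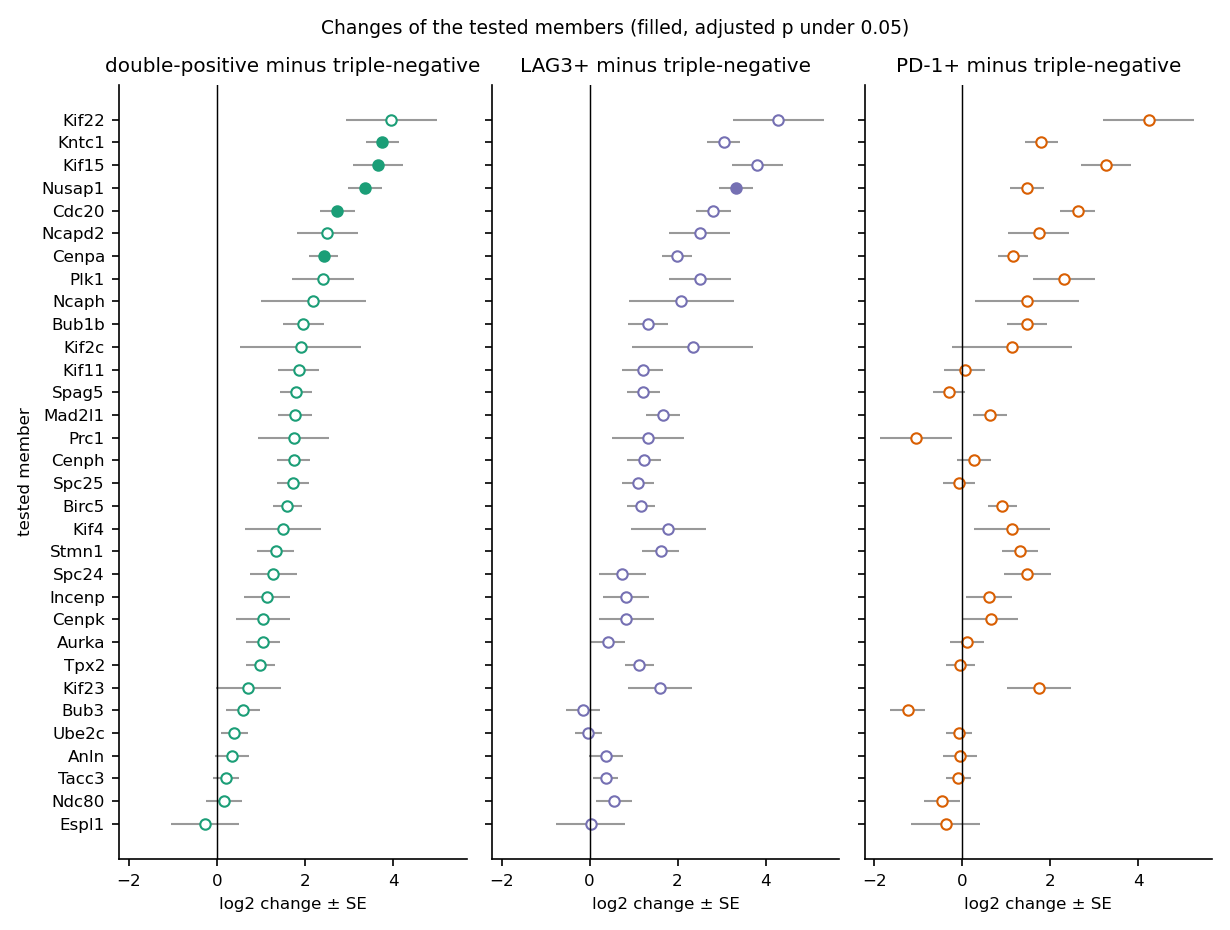
Log2 change ± standard error (x axis, limma) of the 32 tested genes (y axis, ordered by the change in double-positive against triple-negative cells), in double-positive, LAG3+ and PD-1+ cells against triple-negative cells. A change of a gene that was not detected in a population rests on a background value there. Filled points have an adjusted p under 0.05: 5 genes on the left, 1 in the middle and none on the right. The 3 panels share the triple-negative arrays.

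Between the populations that carry a receptor, no mitotic gene passed the test. Double-positive and LAG3+ cells, which differ in 4-1BB, had nearly the same median, with a difference of 0.10 against 0.01 over all genes, and 19 of the 32 were above 0 (51.5% of genes). By limma 0 passed after adjustment (0% of genes), and 0 had an unadjusted p under 0.05 in either direction (1.23% of genes higher and 1.41% lower). The groups did not overlap for 9 that were higher in double-positive cells (17.2% of genes) and 2 that were lower (14.3%). The higher ones were Kntc1, Bub1b, Bub3, Aurka, Birc5, Cenpa, Spag5 and Spc25, by 0.44 to 0.74, and Ube2c, which was not detected in LAG3+ cells, and the lower ones Kif23 and Tacc3. The 95% intervals of the 32 differences were wide, with a median half-width of 0.98 and a range from 0.68 to 3.24. For Nusap1 the interval ran from -0.89 to 0.93, for Cdc20 from -1.02 to 0.86 and for Kntc1 from -0.18 to 1.60. The median was -0.14 without double-positive array 1, -0.10 without LAG3+ array 2, 0.44 without LAG3+ array 1 and 0.34 without double-positive array 2.

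Against PD-1+ cells, the difference in double-positive cells was above 0 for 29 of the 32 (53.5% of genes), with a median of 0.65 against 0.05 over all genes. None passed after adjustment by limma (0.0254% of genes rose), and 12 of the 32 were higher and 0 lower at an unadjusted p under 0.05 (8.26% and 6.42% of genes). The groups did not overlap for 16, all higher in double-positive cells (24.8% of genes were higher and 19.8% lower). Of these 16, Kif11, Spag5, Tpx2, Tacc3, Bub3, Aurka, Cenph, Ndc80, Spc25 and Ube2c were detected on no PD-1+ array. For them the count sets levels against background values of the dimmest arrays. They are also among the 29 and enter the median. Of them, Kif11, Spag5, Tpx2, Bub3, Aurka, Cenph and Spc25 are among the 12 with an unadjusted limma p under 0.05, so the same limit holds for those counts. Spag5 had the smallest adjusted p (0.0709, limma) and was detected on no PD-1+ array, so that double-positive cells exceeded PD-1+ cells by at least 3.35-fold. The same held for Bub3 (at least 2.38-fold), Kif11 (2.25-fold), Spc25 (2.19-fold) and Cenph (2.14-fold). Prc1, detected on 1 PD-1+ array, differed by 2.79 ± 0.81, and Kntc1 and Nusap1, detected on both, by 1.95 ± 0.38 and 1.87 ± 0.39. Cdc20 (0.11 ± 0.40), Plk1 (0.08 ± 0.70), Stmn1 (0.02 ± 0.42) and Kif22 (-0.28 ± 1.03) were close to 0. In LAG3+ against PD-1+ cells, 29 of the 32 were above 0 (53.8% of genes) and the median was 0.58. Here too none passed by limma (0.0508% of genes rose), and 12 were higher and 0 lower at an unadjusted p under 0.05 (6.52% and 4.96% of genes). The groups did not overlap for 14 that were higher (22.3% of genes) and 1 that was lower (17.8%), Spc24. Of the 14, Kif11, Spag5, Tpx2, Tacc3, Bub3, Cenph, Ndc80, Spc25 and Anln were detected on no PD-1+ array. They are also among the 29, and all but Tacc3 and Anln are among the 12. For them these counts, too, set levels against background values. The smallest adjusted p was that of Nusap1 (1.85 ± 0.39, 0.142, limma). Without PD-1+ array 1, 2 genes passed in double-positive and 1 in LAG3+ against PD-1+ cells. The comparisons share arrays, so their values are not independent of each other.

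**Figure D4:**
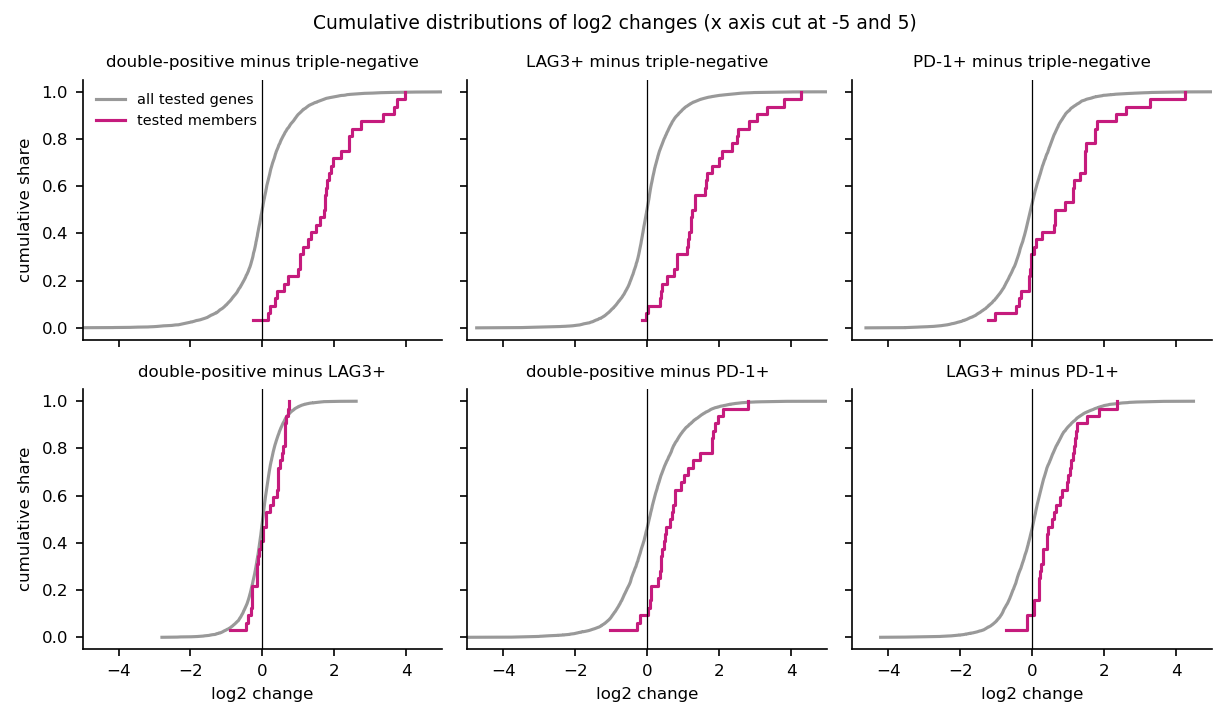
Cumulative share (y axis) of log2 changes (x axis, shown from -5 to 5) of all 7879 tested genes (grey) and the 32 tested mitotic genes (magenta) in the 6 comparisons. The magenta line lies to the right of the grey one in the 3 comparisons with triple-negative cells, most so for double-positive cells (median 1.73), and the lines nearly meet in double-positive minus LAG3+ (median 0.10).

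The experiments differed within LAG3+ and double-positive cells. Of the 32 genes, 25 were higher in experiment 1 than in experiment 2 in LAG3+ cells (51.9% of genes), with a median difference of 0.56, and 24 in double-positive cells (49.1% of genes), with a median of 0.42. In triple-negative and PD-1+ cells 20 of the 32 were higher in experiment 1, with medians of 0.08 in both. Plk1, Ncapd2, Kif22 and Ncaph were among those higher in experiment 1 in both populations, and Spc24, Stmn1 and Bub3 were higher in experiment 2.

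Melanoma cells divide too, and their markers varied with experiment and population. Of 10 listed melanoma markers, 9 had a probe and 6 were detected on at least 2 arrays, while Tyr, Mitf and S100b were detected on none. The summed intensity of the 9 with a probe was 134 and 103 in triple-negative and 733 and 4440 in PD-1+ cells. It was 423 and 2200 in LAG3+, and 201 and 2290 in double-positive cells. This sum, like those of the lists below, takes in probes that were not detected, so a low sum can be background. In both experiments the sum was higher in double-positive, LAG3+ and PD-1+ cells than in triple-negative cells, the direction in which most mitotic genes differed. Within experiments 1 and 2 the double-positive sums were 201 and 2290, and the median changes of the mitotic genes against triple-negative cells 1.77 and 1.54. Macrophage and monocyte markers (6 of 11 detected, with C1qc and Itgam on no array) summed to 72.8 and 180 in triple-negative, 262 and 1260 in PD-1+, 120 and 110 in LAG3+, and 64 and 51.1 in double-positive cells. B cell markers (1 of 5 detected on 2 or more arrays, Cd79b) summed to 100 and 43.8 in triple-negative and 250 and 276 in PD-1+ cells. Their sums were 25.7 and 76.8 in LAG3+, and 10.1 and 12 in double-positive cells. Dendritic cell and class II markers (4 of 10) summed to between 125 and 435 in LAG3+ and double-positive cells, 751 and 231 in triple-negative cells and 902 and 1290 in PD-1+ cells. The part of melanoma cells and of these other cells in the mitotic values of any population was not tested. CD8 T cell markers (6 of 7 detected) summed to between 11100 and 14600 on the 8 arrays.

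**Figure D5:**
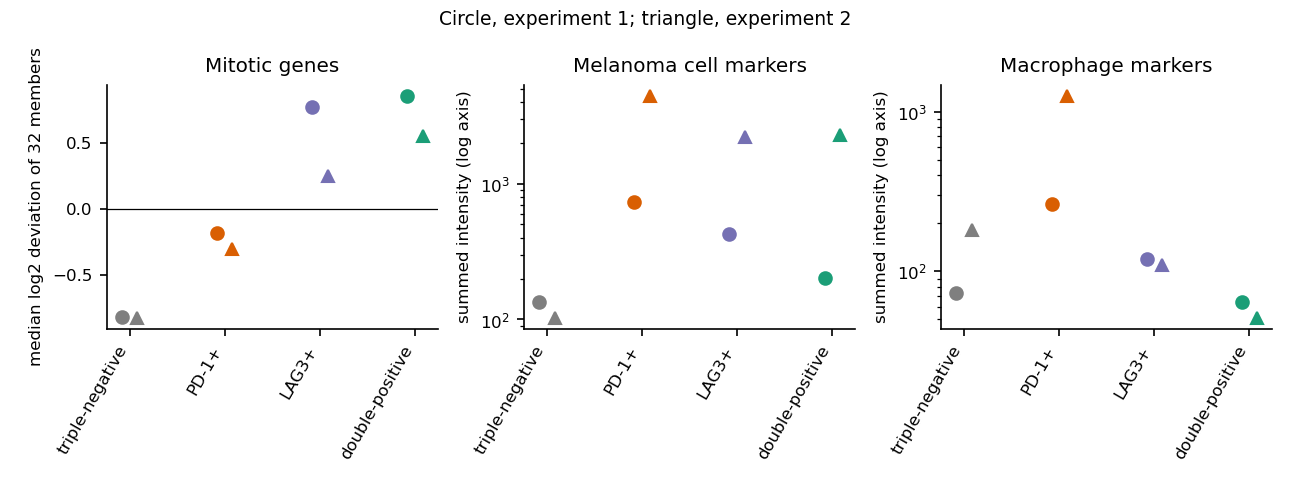
Median log2 deviation of the 32 mitotic genes from their own means (left) and summed intensity, on log axes, of melanoma markers (middle) and macrophage and monocyte markers (right), by sorted population. The sums take in every listed marker with a probe, detected or not. Circles are experiment 1 and triangles experiment 2. Melanoma markers are far higher in experiment 2 than in experiment 1 in the 3 populations that carry a receptor. The mitotic genes run from triple-negative through PD-1+ and LAG3+ to double-positive arrays in both experiments.

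A second list of 98 other mitotic genes, such as cyclins, cohesins, further centromere proteins and subunits of the anaphase-promoting complex, held 85 genes with a probe and 57 that were tested. None passed in any of the 6 comparisons by limma, while 11 of the 57 were higher and 0 lower in double-positive than in triple-negative cells at an unadjusted p under 0.05 (6.79% of all genes each way). Of the 57, 48 were above 0 in that comparison (49.6% of all genes), with a median of 0.46. Without overlap, 23 were higher (40.4%, against 22.6% of all genes) and 2 lower (21.7% of all genes). The 57 genes had passed the same detection filter as the first list, which favours genes that are high in some population. Ccnb1, for example, was at 4.11 on both triple-negative arrays and at 6.22 and 6.26 in LAG3+ cells. These counts, too, do not support a difference by themselves. The 5 with the highest change were Gtse1, Cdca3, Tubg1, Pbk and Fzr1. Cdca3, which helps to degrade the inhibitor of mitotic entry WEE1, was at 5.85 and 6.11 in triple-negative, 8.22 and 7.42 in PD-1+, 8.40 and 8.35 in LAG3+, and 8.76 and 7.85 in double-positive cells. Triple-negative arrays were again the lowest, by 2.32 ± 0.43 against double-positive cells (limma adjusted p = 0.0712). Gtse1, a microtubule-tracking protein, was at 4.58 and 4.57 in triple-negative, 8.27 and 6.05 in PD-1+, 6.96 and 6.28 in LAG3+, and 7.35 and 7.10 in double-positive cells. Its difference between double-positive and triple-negative cells was 2.65 ± 0.68 (limma adjusted p = 0.146). Tubg1, the gamma-tubulin that nucleates microtubules, differed by 2.17 ± 0.55 (limma adjusted p = 0.142), the mitotic kinase Pbk by 2.15 ± 0.79 (0.300) and Fzr1, the second activator of the anaphase-promoting complex, by 1.85 ± 1.36 (0.703). For LAG3+ and PD-1+ against triple-negative cells the medians of this list were 0.49 and 0.05.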

How the data were processed

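The authors deposited an unnormalized intensity and a detection p-value for each probe, per the file headers. The scanner software and its settings were not given in the sources used here. Intensities normalized by the authors, in a way no source here states, served only as an alternative. No value column was left unused.

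The neqc function (limma 3.58.1, R 4.3.3, offset 16) corrected the background, normalized by quantiles and gave log2 values. The brightest probe stood for a gene, and genes with a detection p-value under 0.05 on at least 2 of 8 arrays were tested. limma's lmFit and eBayes compared the 4 populations over all 8 arrays without a block (4 residual and 2.97 prior degrees of freedom), two-sided, with Benjamini-Hochberg adjustment over 7879 genes and a threshold of 0.05. An exact test of 2 against 2 arrays could not go below p = 0.333. The fit was checked on simulated data.

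The experiment number in the titles marks a shared experiment, so it pairs the arrays, and the correlation of same-experiment deviations between populations ran from 0.0919 to 0.222. Values with this block are given where they change a call.

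Probes were named through the platform table and RefSeq gene names (GRCm38.p6). Kif20a, Ckap2, Aurkb, Racgap1, Smc4 and Ncapg had no probe by the rule. A probe the platform table gives to Kif20a is named CDC23 in the deposited table and was not used. The genes and lists were chosen with earlier results of these data known. Array values are given for genes past the threshold, the highest and lowest change of each role, and, chosen after its values were seen, Kif11. Of the other mitotic genes, those past the threshold and the 5 with the highest change were named. Alternatives were another offset, no background correction, other filters, mean of probes, array weights, fewer arrays and the block. The number of arrays limits the precision, with a median standard error of 0.448. As replicates are pools, the spread behind each p-value is that of pools and not of mice.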

Additional observations from a re-analysis of the deposited data

How the results depend on the processing

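The median change of the 32 genes kept its sign in double-positive, LAG3+ and PD-1+ against triple-negative cells in each alternative. It was compressed to 0.89, 0.75 and 0.37 by an offset of 50 and to 0.60, 0.49 and 0.24 without background correction. Double-positive and LAG3+ against PD-1+ cells gave 0.37 and 0.32, and then 0.24 and 0.19. Without a detection filter, which lets all 40 genes in, the medians were 1.31 in double-positive and 0.27 in PD-1+ against triple-negative cells, 0.022 in double-positive against LAG3+, and 0.44 and 0.36 in double-positive and LAG3+ against PD-1+ cells. Detection on at least 4 arrays gave 1.13 for PD-1+ against triple-negative cells, and the mean of detected probes 1.46 for double-positive against triple-negative cells.

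Double-positive against triple-negative cells gave 2 mitotic genes past the threshold without a filter, 2 with only the 2 populations compared, 8 without both PD-1+ arrays and 9 with array weights. For LAG3+ against triple-negative cells it was 0 without a filter, 0 with only the 2 populations, 0 with the replicate block, 2 with the authors' values, 2 with the mean of probes, and 4 without PD-1+ arrays and with array weights. For PD-1+ cells it was 1 with the authors' values. Over all tested genes, double-positive against triple-negative cells had 74 calls, but 114 without background correction, 42 without a filter, 212 without PD-1+ arrays and 229 with array weights. LAG3+ against triple-negative cells had 12 calls, but 23 with an offset of 50, 20 without background correction, 48 without PD-1+ arrays, 66 with array weights, and 0 with only the 2 populations or the block. PD-1+ against triple-negative cells had 42 calls, but 22 with detection on at least 4 arrays and 0 with only the 2 populations or array weights. Double-positive against PD-1+ cells had 4 calls, but 12 without background correction, 8 with the authors' values, 26 without a filter and 0 with only the 2 populations. LAG3+ against PD-1+ cells had 6, but 2 with an offset of 50 or without background correction, and 0 with only the 2 populations, array weights or the block. Double-positive against LAG3+ cells had 0, and 1 without a filter. With the experiments paired as a block, no call of a mitotic gene changed but those of Kif15, Nusap1 and Ncapd2 given above.

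Leaving out 1 array at a time gave 0 to 8, 0 to 4 and 0 to 2 mitotic genes with a call in double-positive, LAG3+ and PD-1+ against triple-negative cells. It gave 0 to 0 in double-positive against LAG3+, 0 to 2 in double-positive against PD-1+ and 0 to 1 in LAG3+ against PD-1+ cells. The medians ran from 1.58 to 1.73, 1.01 to 1.59, 0.32 to 0.86, -0.14 to 0.44, 0.33 to 1.00 and 0.48 to 0.87 in the same order. The calls over all genes ran from 0 to 212 in double-positive against triple-negative cells.

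Signs were followed against triple-negative cells only, for the genes past the threshold and those with the highest and lowest change of each role. The other tested genes were not followed, and Kif2c and Kif4 had opposite signs in the 2 experiments in PD-1+ against triple-negative cells. Among the genes followed, signs changed only for those that had not passed. Leaving out 1 array at a time in double-positive against triple-negative cells moved Kif23 from -0.077 to 1.50, Ndc80 from -0.21 to 0.55, Espl1 from -1.21 to 0.67 and Anln from -0.041 to 0.72. In LAG3+ against triple-negative cells it moved Bub3 from -0.47 to 0.16, Aurka from -0.012 to 0.86 and Espl1 from -0.91 to 0.97, and Espl1 was -0.043 with an offset of 50 and -0.024 without background correction. In PD-1+ against triple-negative cells it moved Aurka from -0.10 to 0.33, Ncaph from -0.54 to 3.48 and Espl1 from -1.31 to 0.56. The cause was not tested. The low signal over background of the PD-1+ arrays limits what can be said of those cells.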
